A study of Mus musculus with 4 samples.

Results

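The genes of the proteasome, with its constitutive and its immune catalytic subunits, were examined in RNA sequencing of mouse embryonic cortex. The members were the protein coding genes whose symbol is Psm, a letter from a to g and a number, with at most 1 further letter. This gave 49 of the 27293 genes of the table, out of 17072 protein coding genes. The processed pseudogene Psmb6-ps and Psmc3ip, whose symbol has a longer suffix, were left out. Telencephalic tissue of C57BL/6 embryos was taken at embryonic day 13 (E13), and 2 libraries were labelled WT and 2 were labelled STINGf/f;Nestin-Cre (cKO). In the latter, Cre expressed from the Nestin promoter, which is active in neural progenitors, acts on floxed STING alleles, so cells that never expressed Nestin keep them. The labels do not say whether the WT embryos carried Cre or floxed alleles, how many embryos entered a library, or that the 2 libraries of a group came from separate embryos, so the spread between them may be technical. The title of WT 2 carries the tag nes where that of WT 1 carries wt, and the labels do not explain it, so the spread between the WT libraries may also hold a difference in genotype.

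The proteasome degrades proteins that carry ubiquitin chains. Its 20S core is a barrel of stacked alpha and beta rings, and the proteolytic sites lie in 3 kinds of beta subunit. These are Psmb6, with caspase-like activity, Psmb7, with trypsin-like activity, and Psmb5, with chymotrypsin-like activity. Interferon induces substitutes for them, Psmb9, Psmb10 and Psmb8 in the same order, and the resulting immunoproteasome generates many of the peptides presented by class I molecules. The 19S particle, made of a base with ATPases and of a lid, recognises and unfolds substrates, while other activators open the core without ubiquitin. STING is an adaptor of cytosolic DNA sensing that lies upstream of type I interferon and NF-kB signaling. Whether the immune subunits were expressed in this tissue, and whether any subunit differed between the groups, were the questions put to the data.

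The depth was similar in the 4 libraries, with 17209654 to 18533391 counts on genes, so that 3 counts, the limit that a count of 0 allows, corresponded to 0.163 to 0.173 CPM (counts scaled to an equal effective library size). The targeted gene, listed as Tmem173, had counts of 20, 19, 18 and 22 in WT 1, WT 2, cKO 1 and cKO 2. Its count was thus not lower in the libraries labelled cKO (log2 fold change 0.02, standard error 0.45, adjusted p = 0.9999 by edgeR's quasi-likelihood test). Counts per gene do not separate the floxed stretch from the rest of the gene, so the genotype could not be checked here, and each library is named below by its label. All 12 cortical markers of the list were expressed. WT 1 stood apart by its markers of mesenchyme and meninges, whose summed level was 298.7 CPM there and 45.0 to 82.9 CPM in the other 3 libraries, and of choroid plexus, with 52.3 CPM there and 6.94 to 9.72 CPM in the others. Its markers of blood summed to 1077 CPM, against 471 to 720 CPM in the others, and those of endothelium to 247 CPM, against 165 to 189 CPM. All 8 blood and all 10 endothelial markers had a log2 fold change below 0 (47.9% of all genes were above 0). So had all 4 choroid plexus markers and all 7 mesenchyme and meninges markers tested. An unadjusted p of at most 0.05 (1.23% of all genes) was reached by 2 endothelial, 4 choroid plexus and 2 mesenchyme markers. The 4 choroid plexus and 2 mesenchyme markers also changed 2-fold or more (0.811% of all genes passed both limits). The groups did not overlap, with cKO lower, in 1 blood, 5 endothelial, 2 choroid plexus and 1 mesenchyme marker (10.8% of all genes).

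The proteasome genes together took 0.517% to 0.585% of all counts in a library. They lay on 16 chromosomes, with 9 members on chromosome 11 and 6 each on chromosomes 2 and 14. Psmb8 (17, 34197721 to 34201454, plus strand, GRCm38) and Psmb9 (17, 34181988 to 34187764, minus strand) lay close together. Tap1, which encodes a peptide transporter of class I presentation, shares exon bases with Psmb9 on the opposite strand. Psmb10 lay alone on chromosome 8 (105935735 to 105938444, minus strand). The constitutive partners were spread over 3 chromosomes, with Psmb5 on 14 (54614120 to 54617995, minus strand), Psmb6 on 11 (70525367 to 70527858, plus strand) and Psmb7 on 2 (38588036 to 38644087, minus strand).

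The sequences upstream of the catalytic subunits are shown because the constitutive and immune genes are known to answer to different factors. The stretches are those of RefSeq's promoter windows on GRCm38.p6, up to 250 bases before the start, without bases in annotated exons, given 5′ to 3′ on the strand of the gene. Capitals mark a match to the antioxidant response element, TGACNNNGC, through which Nfe2l1 and Nfe2l2 act.
Psmb6, chr11:70525107-70525356, plus strand: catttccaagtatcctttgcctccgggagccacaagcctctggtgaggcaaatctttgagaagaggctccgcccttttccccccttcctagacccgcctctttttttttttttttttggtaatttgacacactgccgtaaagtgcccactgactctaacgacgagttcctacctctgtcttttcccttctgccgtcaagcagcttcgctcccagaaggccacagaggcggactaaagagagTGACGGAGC
Psmb5, chr14:54618023-54618245, minus strand: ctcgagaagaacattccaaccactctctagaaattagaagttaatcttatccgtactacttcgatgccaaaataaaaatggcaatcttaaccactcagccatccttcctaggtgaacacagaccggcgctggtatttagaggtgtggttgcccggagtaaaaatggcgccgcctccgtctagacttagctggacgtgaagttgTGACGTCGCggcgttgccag
Psmb10, chr8:105938445-105938642, minus strand: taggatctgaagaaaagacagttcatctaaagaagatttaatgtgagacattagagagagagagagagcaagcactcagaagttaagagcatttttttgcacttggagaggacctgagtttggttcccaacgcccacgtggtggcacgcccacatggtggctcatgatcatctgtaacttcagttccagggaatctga
Psmb6 held the match at positions -9 to -1 from its start and Psmb5 at -47 to -39, while the stretch of Psmb10 held none of the 4 motifs searched. The windows of Psmb8 and Psmb9 lay wholly within annotated exons and are not printed. That of Psmb8 held a match to the gamma-activated sequence (TTCNNNGAA) at -97 to -89. For 41 of the 49 members 44 promoters were listed. A member was counted if any of its promoters held a motif, while the shares over all genes are per promoter, so the 2 are not on the same unit. Of the 41 members, 5 (12.2%) held TGACNNNGC against 10.2% of the 32841 promoters listed, on either strand, and 2 (4.88%) held TTCNNNGAA against 7.02%. The interferon-stimulated response element, searched as GAAA, any 2 bases and GAAA on either strand, was found in 3 members (7.32%) against 2.98% of all promoters, and the kappaB motif in 6 (14.6%) against 7.25%. Such matches describe the letters of these windows only.

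The immune catalytic subunits were barely detected, apart from Psmb10. Psmb8 had counts of 0, 7, 1 and 8 in WT 1, WT 2, cKO 1 and cKO 2. Psmb9 had 2, 2, 1 and 4 counts in the same order. Within each group the libraries of Psmb8 differed more widely than the groups did, and with so few counts no fold change is given for either gene. Psmb10 had 113 and 96 counts in the WT libraries and 120 and 145 in the cKO libraries, and made up 91.4% to 98.4% of the immune subunits' counts. Psmb11, the catalytic subunit of thymic epithelium, had 1, 3, 1 and 4 counts. Psma8, the alpha subunit of the testis proteasome, had 2, 0, 1 and 1. These low values of Psmb8, Psmb9, Psmb11 and Psma8 put them below the filter on low counts, which the other 45 members passed.

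The constitutive catalytic subunits were abundant in every library. Psmb6 reached 154, 164, 169 and 210.3 CPM in WT 1, WT 2, cKO 1 and cKO 2. Psmb7 stood at 89.9, 96.3, 94.3 and 111 CPM in the same order. Psmb5 stood at 43.8, 42.3, 36.5 and 61.3 CPM. All 3 were highest in cKO 2 (33.6% of all genes). Psmb5 had its lowest value in cKO 1, so that its cKO libraries lay on either side of the WT libraries.

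Levels of different genes were compared per kilobase of exon. In the WT libraries, Psmb6 had 84.9 ± 3.88 CPM per kilobase (SD, n = 2), Psmb5 47.9 ± 1.19 and Psmb7 27.2 ± 1.31. Psmb10 followed with 3.43 ± 0.533 CPM per kilobase, Psmb8 with 0.0562 ± 0.0795 and Psmb9 with 0.0306 ± 0.00124. Each step from Psmb6 to Psmb8 was larger than the SDs, whereas Psmb8 and Psmb9 could not be told apart. The level of Psmb7 was 7.92 times that of Psmb10, its direct substitute. The place of Psmb5 depended on the length used, since per kilobase of coding sequence it had 54.4 CPM and Psmb7 112.1. On that scale Psmb7 was 15.7 times Psmb10, and on the scale of the longest transcript 7.32 times.

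**Figure D1:**
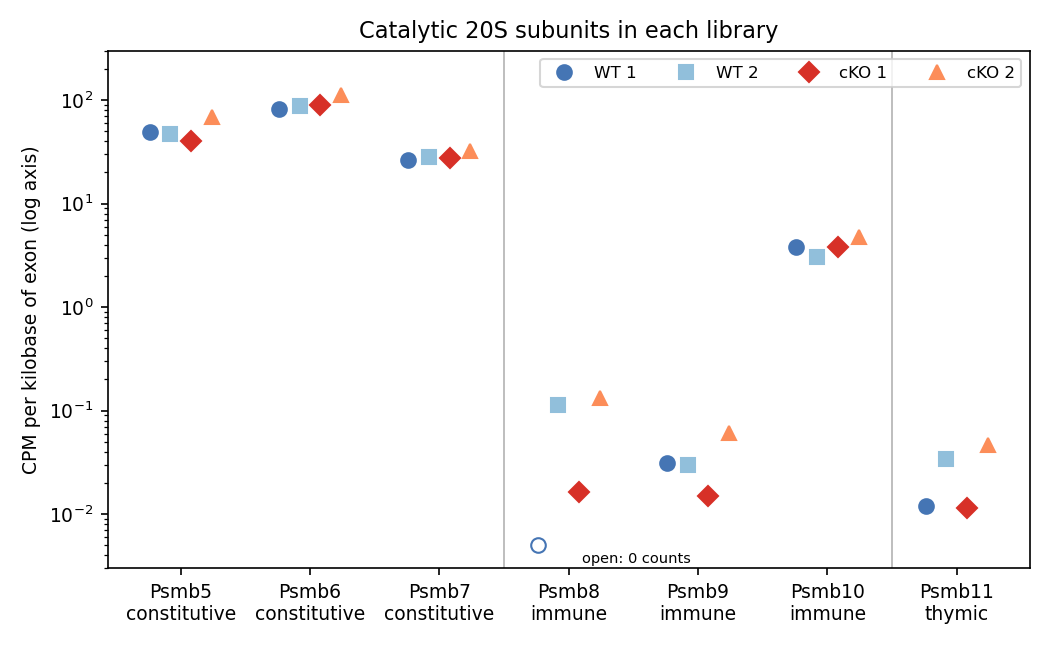
CPM per kilobase of exon (log axis) of the catalytic beta subunits in each of the 4 libraries, 1 point per library, with an open symbol at the bottom for a count of 0. The constitutive subunits lie above 26 CPM per kilobase, Psmb10 between 3.06 and 4.76, and Psmb8, Psmb9 and Psmb11 below 0.14 in every library.

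The share of immune subunits among the catalytic counts did not separate the groups. Psmb8, Psmb9 and Psmb10 took 2.25% of the counts of the 6 subunits in WT 1 (95% exact Clopper-Pearson interval 1.86% to 2.69%, counting error only) and 1.85% in WT 2 (1.52% to 2.23%). The shares were 2.18% in cKO 1 (1.81% to 2.60%) and 2.24% in cKO 2 (1.91% to 2.62%). The mean was 2.05% ± 0.282 in WT and 2.21% ± 0.0459 in cKO (SD, n = 2 each). WT 1 lay above both cKO libraries and WT 2 below them. Per kilobase of exon, the constitutive subunits were 45.9 ± 7.06 times as abundant as the immune ones in WT and 41.9 ± 1.56 times in cKO.

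By pair, Psmb10 took 6.74% of the counts of Psmb10 and Psmb7, 5.14%, 6.50% and 6.80% in WT 1, WT 2, cKO 1 and cKO 2. Psmb8 took 0%, 0.891%, 0.149% and 0.725% of the counts of Psmb8 and Psmb5 in the same order. In WT 1 the absence of counts of Psmb8 allows a share of up to 0.394% when taken as 3 counts of the 762 counts of Psmb5, and of up to 0.483% by the exact 95% interval. Psmb9 took 0.0324% to 0.106% of the counts of Psmb9 and Psmb6. In all 3 pairs the ranges of the groups overlapped or the shares rested on fewer than 10 counts a library. The log2 ratio of immune to constitutive CPM, cKO over WT, was 0.11, within the spread between libraries of 0.15, and it was 0.26 without WT 1 and -0.02 without WT 2.

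Cells of the immune lineage express these subunits, and their markers were present in every library. The 15 markers of microglia and macrophages summed to 85.4, 59.2, 57.4 and 71.0 CPM in WT 1, WT 2, cKO 1 and cKO 2, and none was at 0 in any library. Csf1r, the receptor of a macrophage growth factor, had 307, 227, 194 and 196 counts, lower in both cKO libraries. Lyz2, of the same list, had 36, 13, 50 and 48, higher in both. Of the 15 markers, 3 had a log2 fold change above 0 (47.9% of all genes) and 12 below, and the median was -0.18. The part of these cells in the counts of Psmb8, Psmb9 and Psmb10 was not tested. In tissue RNA, fewer cells of a type and less RNA per cell cannot be told apart.

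No proteasome gene differed between the groups at any threshold. The study took genes with a change of 2-fold or more and an unadjusted p up to 0.05. Of 16145 genes tested, 0.811% passed both, and none of the 45 tested members was among them. An unadjusted p of at most 0.05 was reached by 1.23% of all genes and by 0 members. The smallest unadjusted p of a member was 0.159, for Psmb6 in edgeR's quasi-likelihood test. No gene of the table had an adjusted p under 0.05 in this fit, nor with DESeq2, although 199 had an unadjusted p of at most 0.05. For every tested member the 95% interval of the fold change, from 0.626 to 1.97 over all of them, excluded a change of 2-fold in either direction. These intervals were not adjusted for the number of genes.

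The log2 fold changes of the members ran from -0.07 to 0.33, with standard errors of 0.14 to 0.31. The largest was that of Psmb10 (0.33, standard error 0.28), which stood at 6.50 and 5.21 CPM in the WT libraries and at 6.56 and 8.11 CPM in the cKO libraries. Its groups did not overlap, but WT 1 and cKO 1 were within 0.1 CPM of each other. Psmg4, a chaperone of core assembly, followed (0.31, standard error 0.22), with 18.4, 17.4, 18.9 and 25.6 CPM in WT 1, WT 2, cKO 1 and cKO 2. Next was Psmb6 (0.25, standard error 0.16). In Psmg4 and Psmb6 as well the groups did not overlap and cKO 2 was set apart from the other 3 libraries.

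The smallest log2 fold changes were those of Psmd14 (-0.07, standard error 0.14), Psmc6 (-0.02, standard error 0.15) and Psma3 (-0.01, standard error 0.15). Psmd14 is the deubiquitinase of the lid, Psmc6 an ATPase of the base and Psma3 an alpha ring subunit. Psmd14 had 123.4, 123.1, 123.7 and 112 CPM in WT 1, WT 2, cKO 1 and cKO 2. Psmc6 had 142, 130.4, 144 and 124 CPM in the same order. Psma3 had 114, 99.4, 109.9 and 102 CPM. In these 3 genes the groups overlapped, and in Psmd14 and Psmc6 the library that stood lowest was cKO 2.

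Most members leaned to the cKO side. The log2 fold change was above 0 in 42 of 45 members (93.3%) and in 47.9% of all genes tested, with a median of 0.11 over the members and -0.01 over all genes. Both cKO libraries lay above both WT libraries in 17 members (37.8%), against 11.0% of all genes, and below them in 0 members, against 10.8%. In the other 28 members the groups overlapped. This lean followed cKO 2, which was the highest library in 37 of 45 members (82.2%) and in 33.6% of all genes. WT 1 and WT 2 were highest in 2 members each and cKO 1 in 4. Taking each library against the mean of the other 3, the median member stood 0.22 higher on the log2 scale in cKO 2, and at -0.09 in WT 1, -0.07 in WT 2 and -0.06 in cKO 1. The same median over all genes was within 0.01 of 0 in every library.

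**Figure D2:**
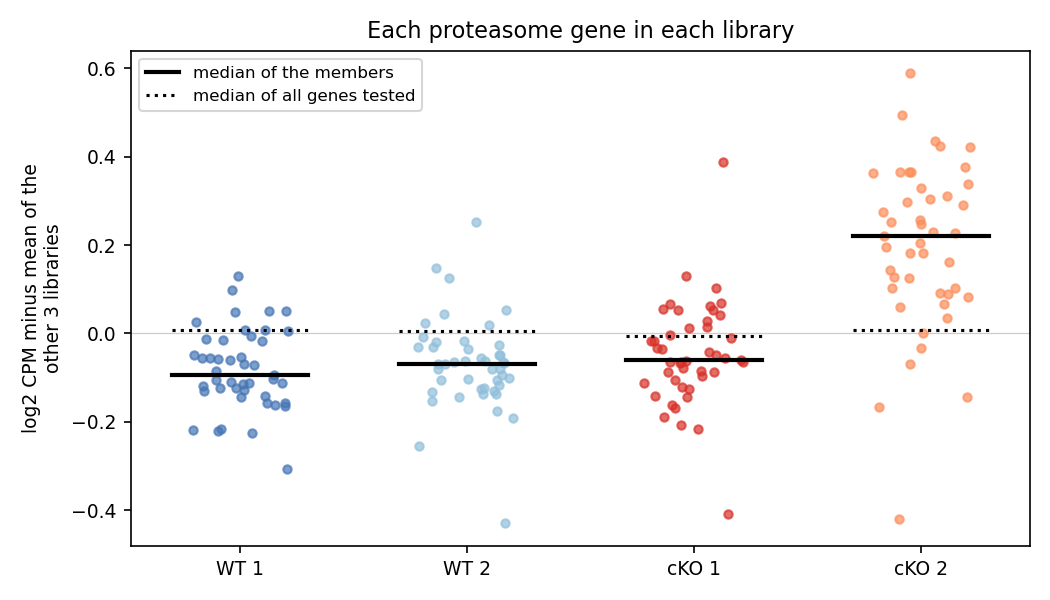
Difference between the log2 CPM of each tested proteasome gene in a library and its mean over the other 3 libraries, 1 point per gene, with the median of the 45 members (solid line) and of all 16145 genes tested (dotted line). In cKO 2, 40 of 45 members lie above 0, and in cKO 1 only 13.

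Without cKO 2, the log2 fold change was above 0 in 32 of 45 members (71.1%) and in 49.8% of all genes, with a median of 0.03 over the members. Psmb5 then turned from 0.18 to -0.22, and Psmb10 went from 0.33 to 0.18. Without cKO 1, the median was 0.21 and 16 of 45 members (35.6%) had an unadjusted p of at most 0.05, as had 15.0% of all genes. In 15 of these 16 the log2 fold change was above 0, and in Psme4, an activator in the nucleus, it was -0.33. None of the members had an adjusted p under 0.05 in that fit. The sum over all 49 members was 5130, 5200.04, 5255 and 5923 CPM in WT 1, WT 2, cKO 1 and cKO 2. The group means were 5165 ± 49.7 CPM in WT and 5589 ± 472 in cKO (SD, n = 2 each), a log2 ratio of 0.11, which fell to 0.02 without cKO 2.

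**Figure D3:**
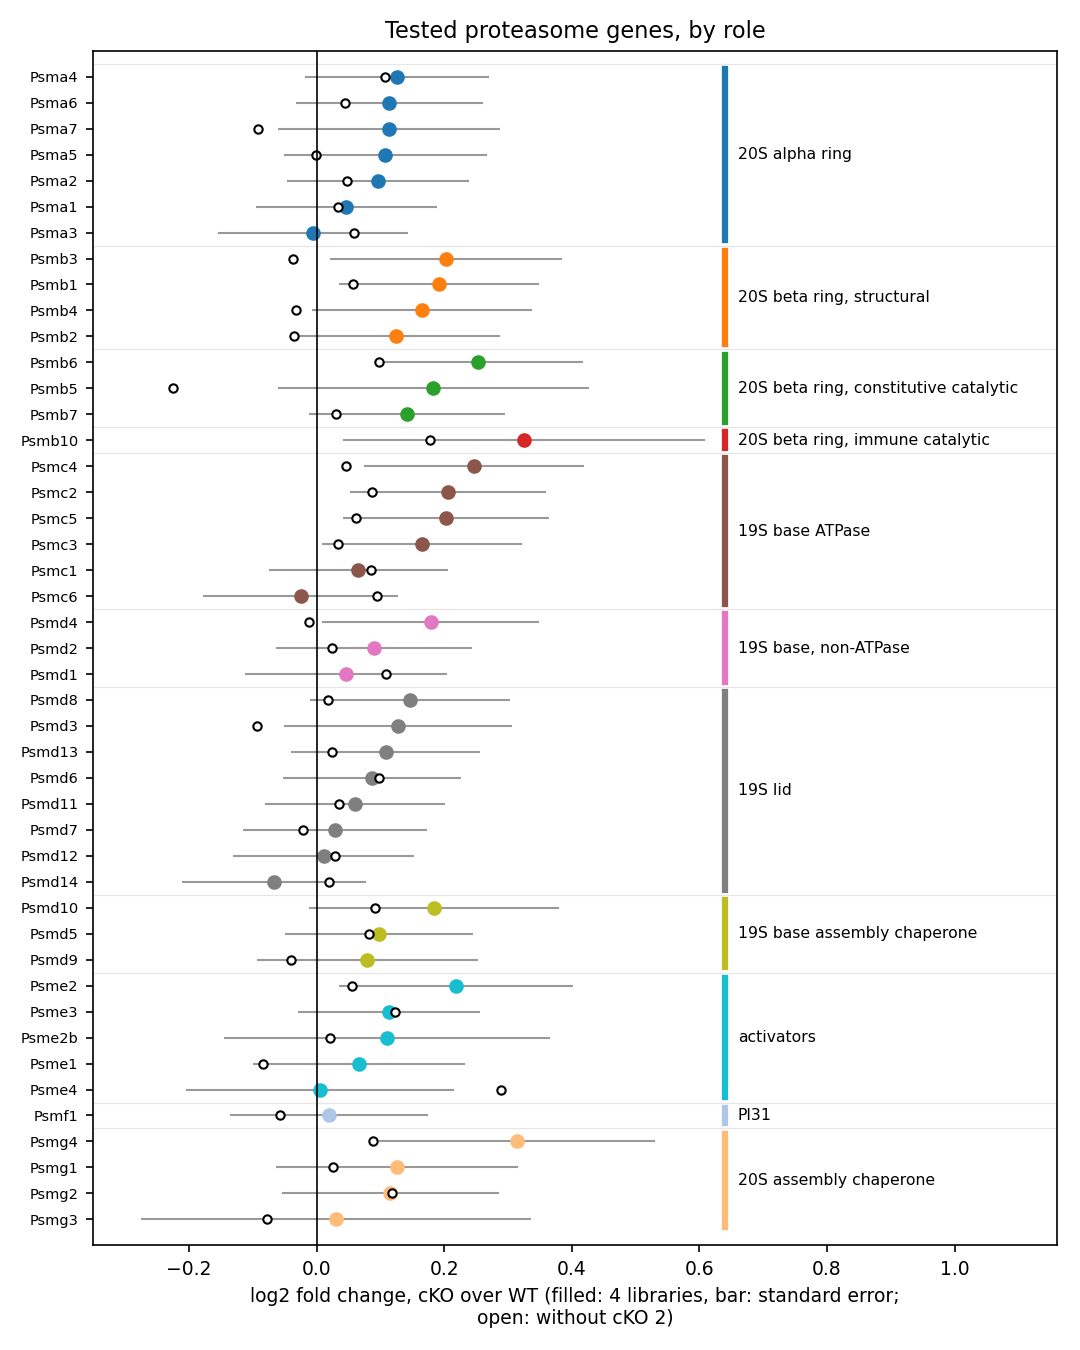
Log2 fold change, cKO over WT, of the 45 tested proteasome genes grouped by role, from all 4 libraries (filled points, bars are standard errors) and without cKO 2 (open points). Filled points run from -0.07 in Psmd14 to 0.33 in Psmb10, and 32 of 45 open points lie above 0.

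The excess in cKO 2 went with exon length, but within each length class the members stood higher than protein coding genes at large. Across the 45 members, Spearman's rho between exon length and the deviation of cKO 2 was -0.44, and across 13712 protein coding genes it was -0.40. WT 2 and cKO 1 went the other way, with 0.40 and 0.25 over the members and 0.24 and 0.32 over protein coding genes. WT 1 showed little relation to length, with 0.06 over the members and 0.02 over protein coding genes. The deviations of the 4 libraries are not independent, since each is set against the other 3, and these values are descriptions with no test. Protein coding genes were divided by exon length into 3 classes of equal size. In the shortest class, up to 3458 bases, 52.7% were highest in cKO 2, against 35.1% in the middle class and 17.7% in the longest. Of the members, 32 fell in the shortest class, and 28 of these (87.5%) were highest in cKO 2. In the middle class it was 5 of 7 members (71.4%), and in the longest 4 of 6 (66.7%). From the shortest class to the longest, the median deviation of cKO 2 was 0.249, 0.161 and 0.095 over the members. Over all protein coding genes it was 0.181, 0.023 and -0.147 in the same order. Psmb5, with 899 bases of exon, stood 50.4% above the geometric mean of the other 3 libraries in cKO 2. Psmg4, with 555 bases, stood 40.8% above that mean. Psme4, with 8382 bases, the longest of the members, had 133, 149.5, 171 and 113 CPM in WT 1, WT 2, cKO 1 and cKO 2, its lowest value. The part of length in the excess of cKO 2 was not tested.

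**Figure D4:**
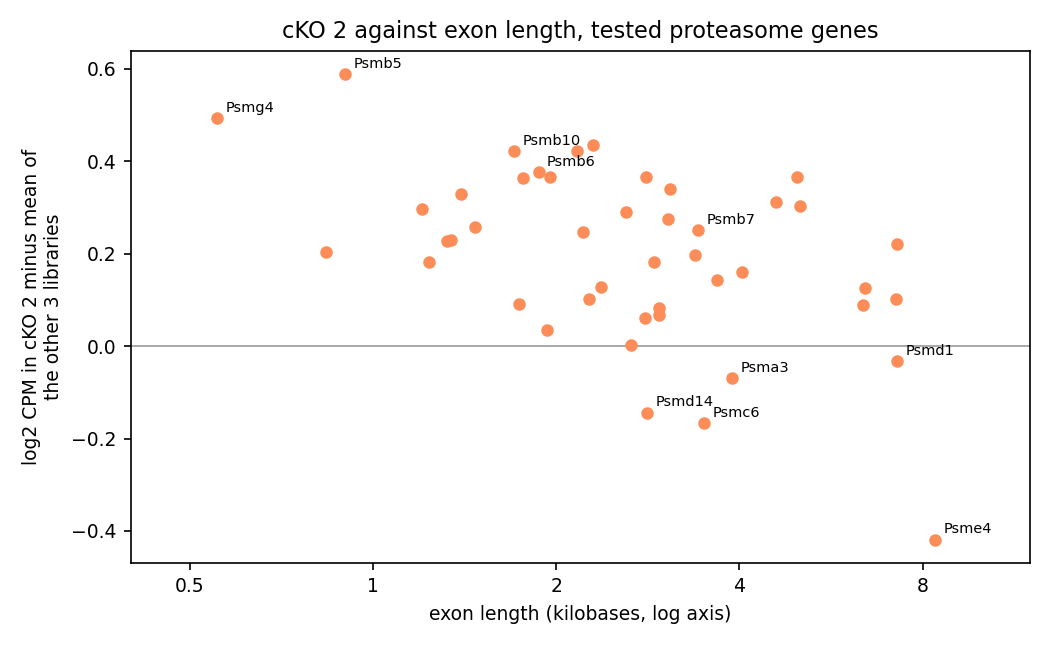
Deviation of cKO 2 from the other 3 libraries (log2 CPM minus their mean) by exon length (log axis), 1 point per tested proteasome gene. Short genes such as Psmg4 and Psmb5 lie highest and Psme4, the longest, lies lowest, with a Spearman's rho of -0.44 over 45 genes.

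In the 20S core, the alpha ring subunits Psma1 to Psma7 had log2 fold changes of -0.01 to 0.13. Of these 7, 6 were above 0 (47.9% of all genes). By WT level they ranged up to 181 CPM in Psma7, and the lowest alpha gene was Psma8. The structural beta subunits ranged from 104.7 CPM in Psmb3 to 186 in Psmb4, with log2 fold changes of 0.13 to 0.20. All 4 fold changes were above 0 (47.9% of all genes), and all 4 genes were highest in cKO 2 (33.6% of all genes). In Psmb3 the libraries stood at 105.1, 104.2, 101 and 139.9 CPM in WT 1, WT 2, cKO 1 and cKO 2, so that cKO 1 lay below both WT libraries. Of these 4 genes, Psmb2, Psmb3 and Psmb4, had a log2 fold change below 0 without cKO 2. The 14 constitutive subunits of the core enter it in equal number, but their levels per kilobase of exon differed by 3.85 times, from Psmb7 to Psma6.

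In the 19S particle, the 6 base ATPases ranged from 116 CPM in Psmc2 to 182 in Psmc1, with log2 fold changes of -0.02 to 0.25. Psmc4 had the largest of these, with 170.1, 170.4, 174 and 229.9 CPM in WT 1, WT 2, cKO 1 and cKO 2. In 4 of the 6 both cKO libraries lay above both WT libraries (11.0% of all genes). Among these was Psmc3, in which WT 2 and cKO 1 both stood at 168 CPM. The other base subunits ran from Psmd1 at 147 CPM to Psmd2 at 368, the highest CPM of any member, with log2 fold changes of 0.05 to 0.18. The 8 lid subunits had 91.8 CPM (Psmd12) to 188 CPM (Psmd3) and log2 fold changes of -0.07 to 0.15. The base chaperones were lower, with Psmd10 at 16.9 CPM, Psmd9 at 40.7 and Psmd5 at 64.7. Psmd10, the only X-linked member, had 17.0, 16.7, 17.8 and 20.5 CPM and a log2 fold change of 0.18 (standard error 0.20).

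Among the activators, Psme1 and Psme2 form the interferon-inducible cap of the core. Psme1 had 64.8, 66.9, 61.5 and 76.4 CPM in WT 1, WT 2, cKO 1 and cKO 2, and its groups overlapped. Psme2 had 34.1, 34.9, 35.5 and 44.8 CPM, with no overlap but with cKO 1 within 1 CPM of WT 2. Their log2 fold changes were 0.07 (standard error 0.17) and 0.22 (standard error 0.18). Both were thus expressed well above Psmb8 and Psmb9, with 29.8 ± 0.688 and 19.6 ± 0.327 CPM per kilobase of exon in WT (SD, n = 2). Psme3, the nuclear activator, was the highest of the activators at 225.4 CPM and the near copy Psme2b the lowest at 7.23. Reads that match both Psme2 and Psme2b cannot be assigned to either with certainty, so the values of both are uncertain. Psmf1, an inhibitor of the core known as PI31, had a log2 fold change of 0.02, and the 4 core assembly chaperones had 0.03 (Psmg3) to 0.31 (Psmg4), at 5.17 CPM in Psmg3 to 29.6 in Psmg2.

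Per kilobase of exon, the highest members in WT were Psma6 (105 ± 4.47 CPM), Psmc5 (98.1 ± 6.06) and Psmb2 (96.4 ± 2.00), which differed by less than 2 SDs of Psma6. The lowest of the tested members were Psmg3 (1.79 ± 0.364), Psmb10 (3.43 ± 0.533) and Psmd9 (5.62 ± 0.233). Psmb10 was the second lowest of 45 on this scale and on that of the longest transcript, and the lowest by coding length. The leading members changed with the length used, Psme3 being highest by coding length and Psmb6 by longest transcript. Several members share exon bases with a gene on the other strand. Among them are Psmd9 (25.5% of its bases, with Gm26745), Psmb8 (14.7%, with Gm20496), Psmb7 (11.8%, with Nek6), Psmd13 (10.1%, with Sirt3) and Psmb9 (5.79%, with Tap1). Psmb5 shares 12.1% of its bases with Mir686 on the same strand. Whether the counting used strand is not given in the sources used here.

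**Figure D5:**
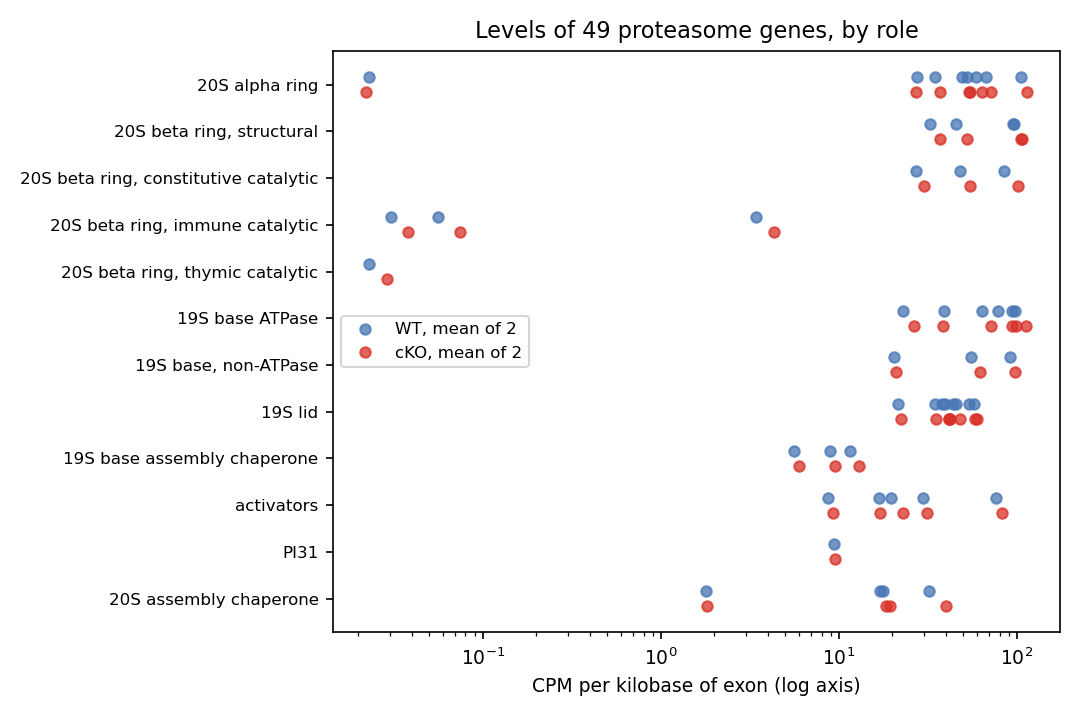
Mean CPM per kilobase of exon (log axis) of all 49 proteasome genes in the WT and the cKO libraries (n = 2 each), grouped by role, 1 point per gene and group. The 14 constitutive core subunits and the 19S base and lid subunits lie between 20.3 and 105 CPM per kilobase in WT, while Psmb8, Psmb9, Psmb11 and Psma8 lie below 0.1.

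The partners and regulators of the proteasome gave no call. Of the 28 genes listed, 27 were in the table and tested, 0 passed the thresholds of the study in either direction, 1 had an unadjusted p of at most 0.05 (1.23% of all genes), and 15 had a log2 fold change above 0 (47.9% of all genes), with a median of 0.04. In 14 of the 27, cKO 2 was the highest library, a larger share than the 33.6% of all genes. Akirin2, which brings the proteasome into the nucleus, had the next smallest p, with a log2 fold change of -0.26 that did not pass. Nfe2l1, the factor that restores proteasome genes when activity is low, had 2859, 2961, 2764 and 3100 counts and a log2 fold change of 0.00. Pomp, the maturation factor of the core, had 1555, 1694, 1668 and 2074 counts, with cKO 2 again the highest library and a log2 fold change of 0.19 (standard error 0.17).

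Genes of class I presentation and interferon signaling gave no call either. Of 23 genes listed, 22 were in the table and 19 tested. None passed a threshold (1.23% of all genes had an unadjusted p of at most 0.05). Of the 19, 7 had a log2 fold change above 0 (47.9% of all genes) and 12 below. The median was -0.09, against -0.01 over all genes. Both cKO libraries lay above both WT libraries in 3 of the 19 (11.0% of all genes) and below them in 4 (10.8%). Tap1, the neighbour of Psmb9, had counts of 38, 23, 22 and 22 in WT 1, WT 2, cKO 1 and cKO 2. B2m, the light chain of class I molecules, had 390, 204, 204 and 242 counts. In both genes WT 1 stood above the other 3 libraries, as in H2-K1, with 214, 108, 91 and 135 counts. The summed markers of mesenchyme, choroid plexus, blood, endothelium and microglia were also highest in WT 1, and the part of these cells in the counts was not tested. The smallest unadjusted p values of this list belonged to Irf8, H2-K1 and Calr, with log2 fold changes of -0.55, -0.54 and 0.23, and none was under 0.2. Tap2, Nlrc5, the activator of class I genes, and Ifit3 had 9 counts or fewer in every library and were not tested.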

How the data were processed

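Total RNA of E13 mouse cortex was sequenced by the authors on an Illumina HiSeq instrument in 4 libraries. Their processing notes name TopHat2 2.0.12, Bowtie2 2.2.3 and HTSeq 0.6.0 with the build mm9. The deposited values are raw counts of reads per gene, without normalization. Gene positions in the table lie within 1 base of a GENCODE M21 start or end for 97.2% of 27232 genes, so they were read as GRCm38, and exon lengths (the union of all exons) were taken from that annotation. Blank rows (11, 0.0403% of 27304) were left out. The deposited fold changes, p-values and mean values, and a second table of 2 libraries, were not used.

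Differences, cKO minus WT, were fitted over all genes by the quasi-likelihood method of edgeR 4.0.16 (R 4.3.3) without a covariate, after filterByExpr and TMM scaling, with Benjamini-Hochberg adjustment over all genes tested. CPM are on TMM effective library sizes. The standard error is the log2 fold change over the root of F, and intervals use the t quantile at 95%. Clopper-Pearson intervals were computed with scipy 1.17.1. With 2 libraries a group, no exact permutation test can go below p = 0.333, and SDs rest on 2 values. Depth was 17209654 to 18533391 counts a library. DESeq2 1.42.0, other scalings and filters, the replicate number as a block and leaving out each library were alternatives.

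The members, companion lists and marker lists were chosen with earlier results of these data known. Named genes are the 6 catalytic subunits, members below the filter, the 3 largest and smallest log2 fold changes, the 3 highest and lowest levels per kilobase, Psme1, Psme2, Psmd10, the extremes of each role and, of the companion lists, the 3 smallest p and Tap1, Nfe2l1, Pomp and B2m. Other genes were named after their values were seen. Ecpas was found under its older symbol AI314180. Paaf1, Ifit1, Ttr and Clic6 were not analysed here. The values of 2 companion genes that the rule names are not reported here.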

Additional observations from a re-analysis of the deposited data

How the results depend on the processing

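With 4 libraries the limits come from their number and from single libraries. No member passed the thresholds of the study under any of the 10 alternatives, and none of the companion genes did. Without cKO 2, the count of members with a log2 fold change above 0 was 32. With no filter beyond 1 count it was 45 of 49, since the 4 members with few counts then entered too. Under the other alternatives it was 40 to 42. No member had an unadjusted p of at most 0.05, except for 16 without cKO 1. Over all genes, 131 were called in the fit used here, 405 with no filter beyond 1 count, 72 with at least 10 counts in every library and 65 with DESeq2. Without 1 library in turn the calls ranged from 104 (WT 1) to 531 (cKO 1), with 476 without WT 2. Genes with an adjusted p under 0.05 numbered 0 in the fit used here, 65 with no filter beyond 1 count, and 0 (cKO 2) to 116 (WT 2) without 1 library, with 7 without WT 1 and 105 without cKO 1. In these fits the lone library of a group is assumed to vary like the others. The cause of these differences was not tested.

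With the replicate number as a block, 208 genes were called and 5 had an adjusted p under 0.05, and no member was called. Same-numbered libraries deviated together with a correlation of 0.1078 over 16145 genes, but there are only 2 pairs and nothing in the labels ties the numbers to a litter or day, so the block was not used.

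The log2 ratio of summed proteasome CPM ranged from 0.025 (without cKO 2) to 0.20 (without cKO 1). That of immune to constitutive CPM ranged from -0.025 (without WT 2) to 0.26 (without WT 1), and stood at 0.17 both as the mean of 3 log2 ratios (0.05 CPM added) and over 2 pairs. The ratio per kilobase in WT was 0.0221, 0.0195 by coding length and 0.0188 by longest transcript. Of 110 refits of 11 named members, 7 changed sign and none passed a threshold on the adjusted p. Psma3 ranged from -0.085 to 0.093 and turned positive without WT 1 and without cKO 2 (0.059), and Psmc6 ranged from -0.14 to 0.095 and turned positive without the same libraries (0.036 without WT 1). Without cKO 2, Psmb5 turned to -0.22 (0.51 without cKO 1), Psme1 to -0.084 (0.22 without cKO 1) and Psmd14 to 0.019 (-0.14 without cKO 1).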
